A study of Mus musculus with 6 samples.

Results

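Mgll, Pnpla2, Abhd5, Plin3, Fabp5 and Slc27a4 are 6 mouse genes whose products coat lipid droplets, release fatty acids from stored fat, or carry fatty acids into and through the cell. All transcript rows bearing 1 of these 6 gene names were taken from the authors' deposited table of expression, which gave 12 transcripts of 15905 and 6 genes of 8513. The cells were B16.F10, a mouse melanoma line of wild-type genotype, kept as a single cell layer. One group of 3 samples received no treatment, and the other group of 3 received simvastatin, a statin that blocks HMG-CoA reductase and so the making of mevalonate and cholesterol, at 3.5 µM for 24 h. That dose is the concentration which the submitters took as the half-maximal inhibitory one for this line, and all 6 samples carry the same batch label. The series asked how the drug changes the lipid metabolism of these cells, by sequencing strand-specific total RNA libraries.

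The deposited table gives a single value per group and transcript, with a fold, a p-value and an adjusted p. The spread between replicates is thus not shown, and it could enter only through those p-values. No source used here names the unit of the values or the depth of the libraries. Values are therefore set side by side between groups and between transcripts of the same gene, and not between genes. In bulk RNA, fewer cells of a kind and less RNA per cell cannot be told apart. All 8 melanocyte markers on the list were measured, and 0 of the 8 passed an adjusted p under 0.05, beside 3.15% of all genes. Their summed values, 9408 with simvastatin and 6885 in controls, came mostly from Dct and Pmel. On the transcript of highest mean value, 7 of the 8 were higher and 1 lower. At an unadjusted p under 0.05, 3 of the 8 were higher, beside 13.6% of all genes. The authors called 1 of the 8, Gpr143, with an adjusted p printed as 0.05, beside 12.4% of all genes. None of the 7 adipocyte, 5 leukocyte, 6 fibroblast and 4 keratinocyte markers was among the transcripts analysed.

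Cells store surplus fatty acids as triacylglycerol in lipid droplets, which are coated by perilipins. Lipolysis takes the fat apart in steps: adipose triglyceride lipase, encoded by Pnpla2 and switched on by the Abhd5 protein, removes the first fatty acid, further lipases act on diacylglycerol, and monoacylglycerol lipase, encoded by Mgll, frees the last fatty acid and the glycerol. Mgll also breaks down 2-arachidonoylglycerol, an endocannabinoid, and is known in tumour cells as a source of free fatty acids.

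With simvastatin, Slc27a4-201 rose and the assembled Plin3 transcript TCONS_00012328 fell in the authors' deposited table, taking an adjusted p under 0.05 as the threshold. These 2 of 12 transcripts stand against 2.09% of all transcripts that passed, 1.11% as higher and 0.987% as lower. The genes were picked with earlier results of these data known, so this count is a description and no evidence about lipid droplets as such. By the ratio of values summed per gene, the largest of the 6 belonged to Mgll, at 42.83 with simvastatin and 7.67 in controls, and neither of its transcripts passed the threshold. Summed over transcripts, Mgll, Abhd5, Pnpla2, Slc27a4 and Plin3 had higher values with simvastatin and Fabp5 a lower one. Among all genes with summed values of at least 1 in both groups, 51.7% were higher with simvastatin.

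**Figure D1:**
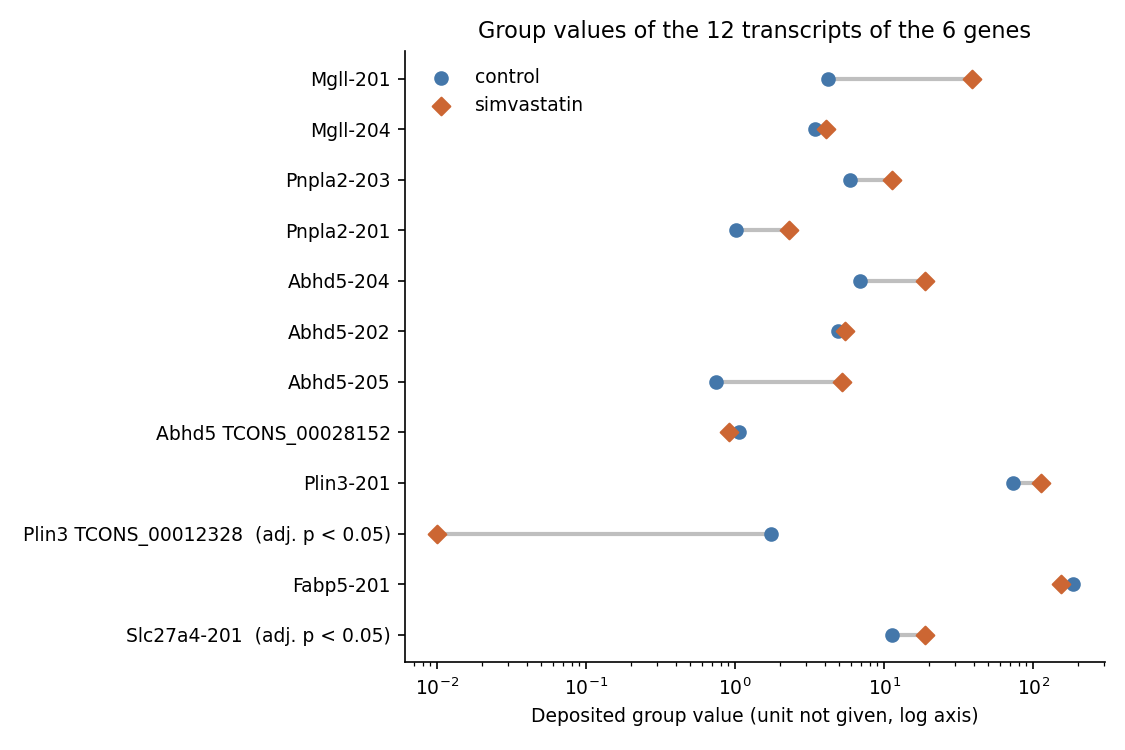
Deposited group values of the 12 transcripts on a log axis (unit not given), with circles for control and diamonds for simvastatin; each point is a single group value without an error. Mgll-201 spans from 4.22 to 38.75, and 9 of 12 transcripts have the diamond to the right of the circle.

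The authors' deposited table also carries a yes or no call of its own, whose rule no source used here states. By that call 5 of the 12 transcripts were higher with simvastatin (Mgll-201, Pnpla2-203, Abhd5-204, Plin3-201 and Slc27a4-201) and 1, Plin3 TCONS_00012328, was lower, beside 9.5% of all transcripts called in either direction (5.13% higher, 4.37% lower). At an unadjusted p under 0.05, 6 of 12 were higher and 2 were lower, beside 19.6% of all transcripts (9.42% higher, 10.2% lower). At an adjusted p under 0.1 the count was 4 higher and 1 lower, beside 7.78% (4.02% higher, 3.76% lower).

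Mgll encodes monoacylglycerol lipase and lies on the plus strand of mouse chromosome 6 (GRCm38, chr6:88724412-88828360). Of its 10 annotated transcripts, 2 protein-coding ones were in the table. Mgll-201 had a value of 38.75 with simvastatin and 4.22 in controls, and the authors' deposited table gives a 9.18-fold difference with p = 0.002 and adjusted p = 0.062. This transcript stood far higher with the drug, but the difference missed an adjusted p of 0.05. Mgll-204 had 4.08 with simvastatin and 3.45 in controls, a deposited fold of 1.18 with an adjusted p of 0.111. The 2 transcripts were at like values in controls, where Mgll-201 made up 55.0% of the gene's total, and Mgll-201 made up 90.5% with simvastatin. Whether the 2 transcripts differed from each other in their response was not tested, since no values per sample are given.

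The structures show what sets the 2 Mgll transcripts apart. They share 7 identical exons and all of the coding exons, so both encode the same protein, and they differ in their untranslated first exon alone: 351 bases starting at chr6:88724828 in Mgll-201 and 160 bases starting at chr6:88724412 in Mgll-204. The start sites lie 416 bases apart. RefSeq lists a promoter window that begins 250 bases before the start of Mgll-204. The start of Mgll-201, the transcript with the larger deposited fold, lies downstream of this window. The 250 bases printed below are those directly before the start of Mgll-204. They lie at chr6:88724162-88724411 (GRCm38.p6, plus strand), read 5′ to 3′, with capitals marking a CACGTG motif that begins 44 bases before the start.
Mgll upstream bases: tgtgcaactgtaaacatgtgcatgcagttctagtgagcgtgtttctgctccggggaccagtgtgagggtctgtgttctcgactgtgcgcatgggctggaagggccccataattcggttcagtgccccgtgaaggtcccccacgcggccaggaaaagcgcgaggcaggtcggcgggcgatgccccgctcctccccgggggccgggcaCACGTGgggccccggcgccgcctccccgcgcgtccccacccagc
CACGTG reads the same on both strands, is the core bound by basic helix-loop-helix factors, and was held by 7.15% of the 32851 promoter windows of 300 bases in the RefSeq table. The window with its 50 bases past the start had a GC content of 70%, against a median of 52.7% over all windows. A match of this kind describes the letters and not a bound site. A further RefSeq start for Mgll lies at chr6:88724704, and Mgll-201 begins downstream of the end of its window. That window, the nearer one to Mgll-201, held none of the motifs searched.

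Another annotated gene, the antisense RNA Gm26588 (minus strand, chr6:88716422-88725860), overlaps the 5′ end of Mgll by 1449 bases. Its annotated exons share 90 of the 160 bases of the first exon of Mgll-204 and 62 of the 145 bases of the second exon of both Mgll transcripts. They share no base of the first exon of Mgll-201. The Gm26588 row TCONS_00023271 had a value of 5.1 with simvastatin and 1.42 in controls, a 3.59-fold difference with an adjusted p of 0.061 in the authors' deposited table. That row is an assembled transcript whose structure was not analysed here, so which bases it shares with Mgll is not known. Gm26588 was named after its values were seen, because it overlaps Mgll. Both genes thus stood higher with the drug at the authors' own call, without either passing an adjusted p of 0.05. The libraries keep strand per the labels, but whether the counting used it is not given, so reads from the shared bases cannot be told apart.

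**Figure D2:**
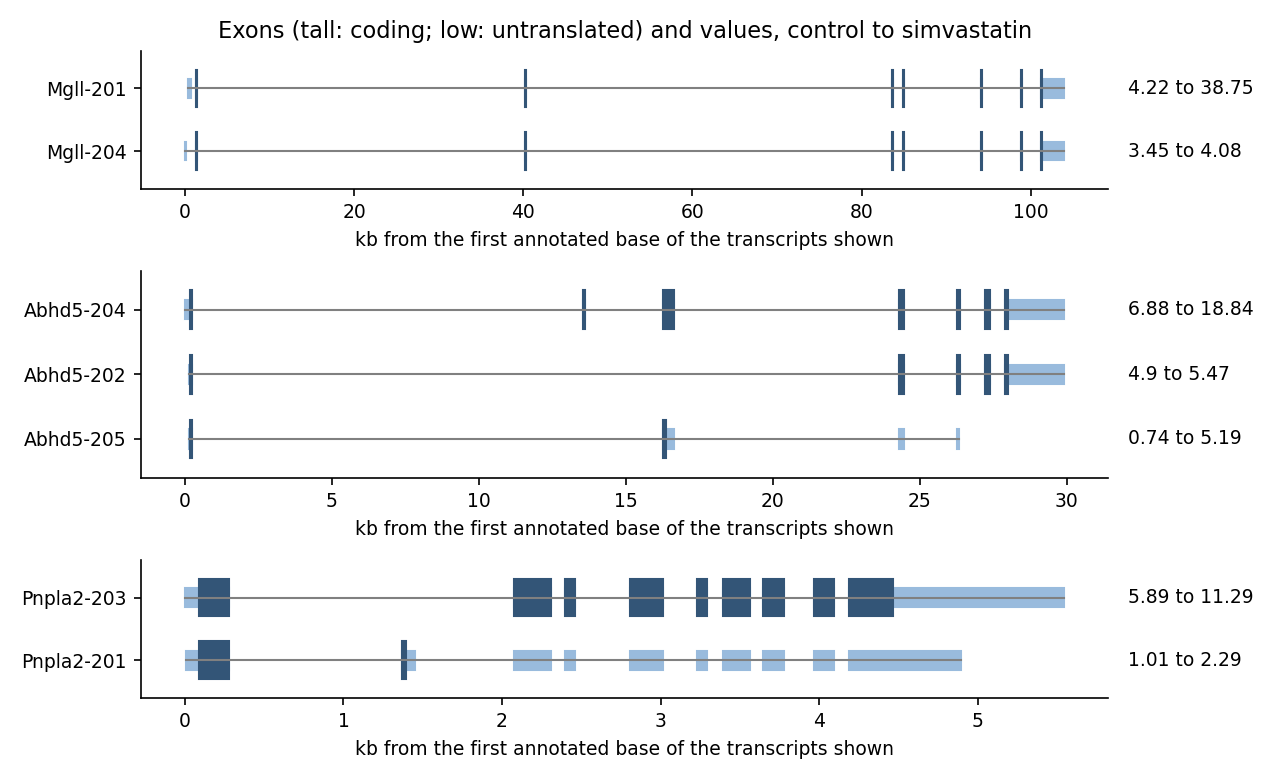
Annotated exons of the Mgll, Abhd5 and Pnpla2 transcripts in kb from the first annotated base (tall dark boxes coding, low light boxes untranslated), with the control and simvastatin values at the right. Mgll-201 and Mgll-204 differ at the left end alone, where Mgll-201 goes from 4.22 to 38.75 and Mgll-204 from 3.45 to 4.08.

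Abhd5, also called CGI-58, encodes the co-activator that binds adipose triglyceride lipase and raises its activity. It lies on chromosome 9 (GRCm38, chr9:122351608-122381524, plus strand), and 3 of its 8 annotated transcripts and 1 transcript assembled from reads were in the table. The first splice junction tells the annotated 3 apart, so the last 15 bases of the first exon are printed in lower case and the first 15 bases of the next exon used in capitals (GENCODE M21, 5′ to 3′).
Abhd5-204: agacgccggtggaggGTCAGGATGGCTGAC
Abhd5-205: agacgccggtggaggGTGTCCCCTGCACTT
Abhd5-202: agacgccggtggaggGGTTAGTCACCTCAT
From the same first-exon end at chr9:122351839, Abhd5-204 joins to the exon starting at chr9:122365136, Abhd5-205 to the one at chr9:122367889 and Abhd5-202 to the one at chr9:122375906. Abhd5-204 encodes the longest protein of the 3, of 351 codons. Abhd5-202 leaves out exons of 86 and 373 bases and keeps 198 codons. Abhd5-205 also leaves out the exon of 86 bases and is annotated as a target of nonsense-mediated decay.

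Abhd5-204 had a value of 18.84 with simvastatin and 6.88 in controls, with a deposited fold of 2.74, p = 0.02 and adjusted p = 0.16 in the authors' deposited table. Abhd5-202 had 5.47 and 4.9 with an adjusted p of 0.774. Abhd5-205 had 5.19 with simvastatin and 0.74 in controls, a 7.01-fold difference with an adjusted p of 0.411 in the authors' deposited table. The values of Abhd5-204 and Abhd5-205 stood higher with the drug, while those of Abhd5-202 were close to each other. None of these differences passed. The assembled transcript TCONS_00028152 had 0.91 and 1.06 with an adjusted p of 0.886. Abhd5-204 made up 62.0% of the gene's total with simvastatin and 50.7% in controls, and Abhd5-202 made up 18.0% and 36.1%. By its annotated exons, the antisense gene A730085K08Rik shares 950 bases with the 2012-base last exon of Abhd5-204 and Abhd5-202. Its 2 rows are assembled transcripts whose structures were not analysed here. They were not higher with simvastatin: 28.73 against 42.74 in controls, and 4.91 against 5.35, with adjusted p of 0.696 and 0.944 in the authors' deposited table.

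Pnpla2 encodes adipose triglyceride lipase, the enzyme that starts lipolysis at the droplet surface. It lies on chromosome 7 (GRCm38, chr7:141455198-141460743, plus strand), with 2 of 7 annotated transcripts in the table. Pnpla2-203, which encodes the lipase, had a value of 11.29 with simvastatin and 5.89 in controls, with a deposited fold of 1.92, p = 0.002 and adjusted p = 0.061 in the authors' deposited table. Pnpla2-201, annotated as a target of nonsense-mediated decay, had 2.29 and 1.01 with an adjusted p of 0.922. Both values stood higher with simvastatin, and the share of Pnpla2-203 in the total was 83.1% with the drug and 85.4% in controls, so the 2 transcripts had like proportions in both groups. Pnpla2-201 carries an extra exon of 82 bases between the first 2 exons of Pnpla2-203. Their first junctions are printed as for Abhd5, from the exon end at chr7:141455473 to the exon starting at chr7:141457273 in Pnpla2-203 and at chr7:141456568 in Pnpla2-201.
Pnpla2-203: ctggggcctgcctggGTGAAGCAGGTGCCA
Pnpla2-201: ctggggcctgcctggGTGATCTTGAGCAGC

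**Figure D3:**
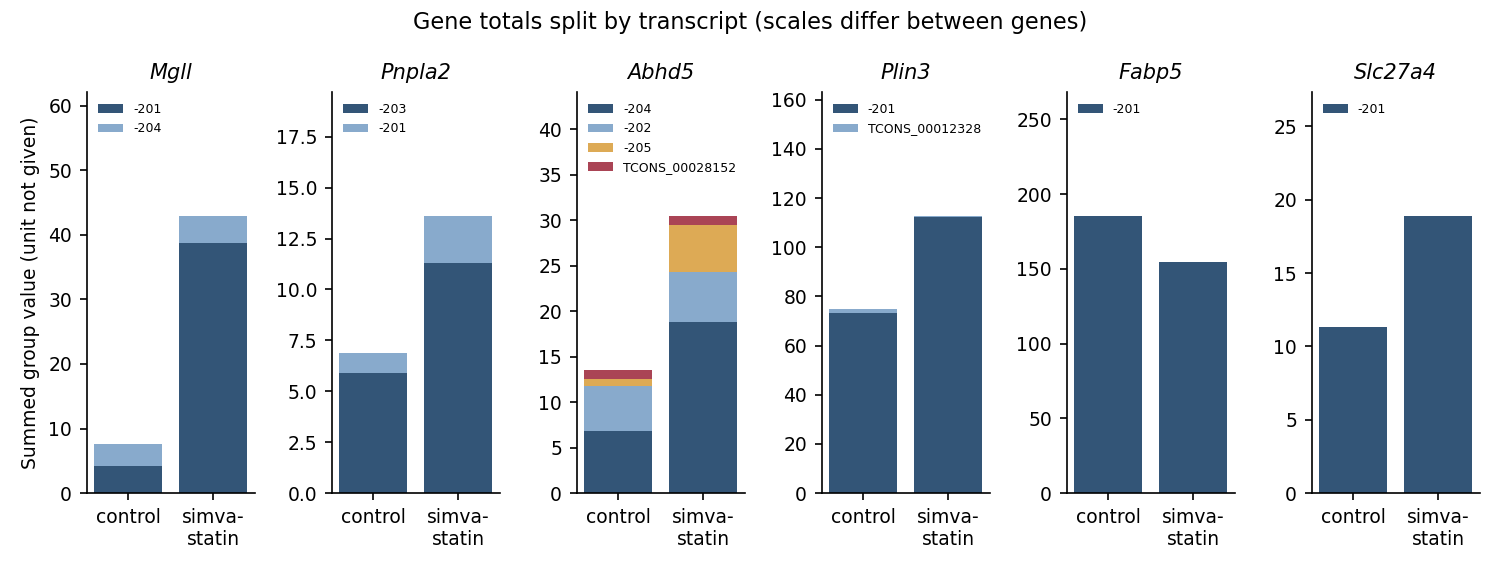
Summed group values per gene (unit not given, each panel on its own scale from 0), split by transcript, for control and simvastatin. Mgll-201 fills 90.5% of the Mgll bar with simvastatin and 55.0% in controls, and Fabp5 is the gene whose simvastatin bar is the shorter.

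Plin3 encodes perilipin 3, a coat protein that moves between the cytosol and the surface of lipid droplets and that also binds mannose 6-phosphate receptors on endosomes. It lies on chromosome 17 (GRCm38, chr17:56277476-56292873, minus strand), with 1 of 2 annotated transcripts and 1 assembled transcript in the table. Plin3-201, with 8 exons, had a value of 112.5 with simvastatin and 73.24 in controls, a deposited fold of 1.54 with p = 0.002 and adjusted p = 0.053 in the authors' deposited table. TCONS_00012328 had 0.01 with simvastatin and 1.75 in controls, and it fell with p = 0.001 and adjusted p = 0.042 in the authors' deposited table. The 2 rows thus went in opposite directions by the authors' call, as did those of 47 genes in all, Plin3 included, of the 624 genes with at least 2 transcripts and any call. TCONS_00012328 held 2.33% of the gene's total in controls. Its structure was not analysed here. Its deposited fold is -222.61, with a simvastatin value printed as 0.01. The printed values do not give that fold exactly, and their rounding allows anything from 116-fold to 351-fold. Log2 ratios of this transcript given here were taken from the printed values. A fall to nearly 0 was not particular to Plin3. Of the 157 transcripts that passed the same threshold as lower, 11 had a simvastatin value under 0.05, whatever their control value. TCONS_00012328 is among these 11.

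Slc27a4 encodes fatty acid transport protein 4, a membrane protein with acyl-CoA synthetase activity that helps long-chain fatty acids enter the cell. It lies on chromosome 2 (GRCm38, chr2:29802634-29817522, plus strand), with 1 of 2 annotated transcripts in the table. Slc27a4-201, with 13 exons and 1929 coding bases, had a value of 18.85 with simvastatin and 11.35 in controls. It rose 1.66-fold, with a p printed as 0 to 3 decimals and an adjusted p of 0.019 in the authors' deposited table. Of all 15905 transcripts, 8 had a smaller adjusted p as printed, and those tied at 0.019 were not counted. The difference in size was the fourth of the 5 genes with higher totals.

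Fabp5 encodes the epidermal fatty acid binding protein, a small cytosolic carrier that brings fatty acids to enzymes and to nuclear receptors. It lies on chromosome 3 (GRCm38, chr3:10012548-10016607, plus strand), with 1 of 2 annotated transcripts in the table. Fabp5-201, with 4 exons and 135 codons, had a value of 154.39 with simvastatin and 185.07 in controls, a deposited fold of -1.2 with p = 0.015 and adjusted p = 0.136 in the authors' deposited table. It was the single one of the 6 genes with a lower total, and the difference missed the threshold. The transcript resembles 5 processed pseudogenes (Fabp5l2, Gm13998, Gm14328, Gm6100 and Gm6166) at 93.6% to 98.3% identity over 327 to 408 aligned bases. Reads may thus be split between near-identical copies, and the value is uncertain. No transcript analysed carried the name of any of these 5 pseudogenes, and how reads were shared was not tested. For the other 5 genes the search found no similar transcript of another gene.

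Set among all genes, the totals of the 6 genes spread from the far upper end to below the middle. Over 8252 genes with summed values of at least 1 in both groups, the median log2 ratio of simvastatin over control was 0.02. The log2 ratio of the totals was 2.48 for Mgll, rank 8 from the highest, and 1.16 for Abhd5, rank 197. Pnpla2 followed at 0.98, rank 354, then Slc27a4 at 0.73, rank 702, and Plin3 at 0.59, rank 1070. Fabp5 stood at -0.26, below the median, with 28.8% of genes lower. These ratios have no error of their own, so no neighbours in this order are shown to differ. The summed values over all transcripts were 344210 with simvastatin and 394749 in controls. Scaling both to the same sum would add 0.20 to each log2 ratio, which leaves all 6 directions as they are and brings Fabp5 to -0.06.

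**Figure D4:**
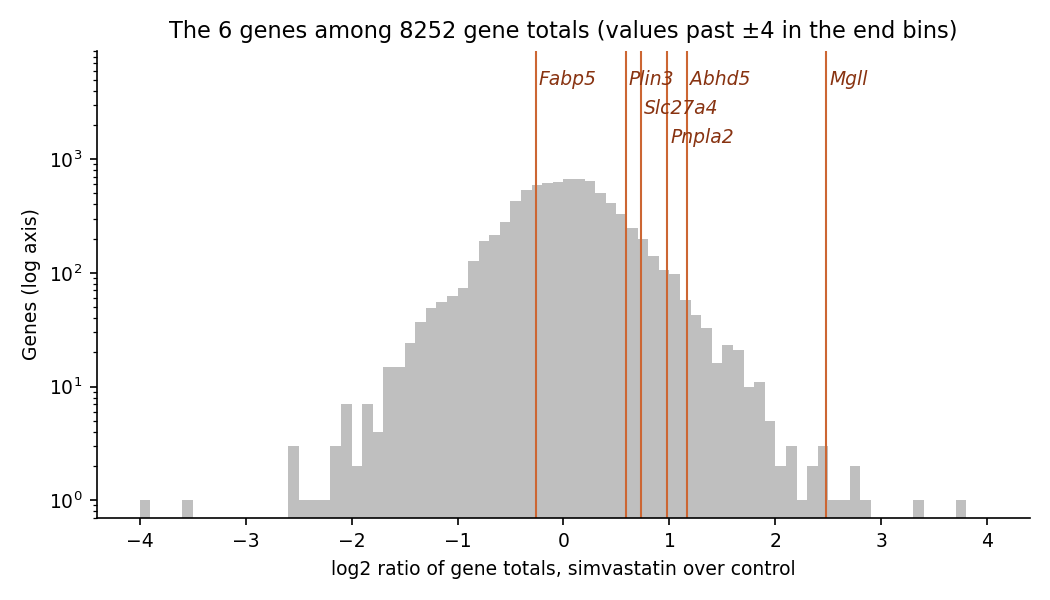
Histogram of the log2 ratio of gene totals (simvastatin over control) for 8252 genes on a log count axis, with a line at each of the 6 genes. Mgll stands at 2.48 in the sparse upper tail, 4 genes lie between 0.59 and 1.16, and Fabp5 lies at -0.26.

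The named genes nearest to Mgll in the log2 ratio of their totals, over the 2 group values, were Nox4, a superoxide-making oxidase, Rhob, a small GTPase, and Cdkl2, a kinase. Nox4 stood at 6.96 with simvastatin and 1.26 in controls, a log2 ratio of 2.47. Rhob stood at 276.39 and 51.4, a log2 ratio of 2.43, and Cdkl2 at 13.23 and 2.19, a log2 ratio of 2.59. Likeness over 2 values says no more than that the ratios are of like size.

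A set of 7 lists of lipid droplet and fatty acid genes, 105 genes in all, put the 6 beside the rest of the pathway. Of these, 55 were measured, and Slc27a4 alone passed an adjusted p of 0.05 on its transcript of highest mean value, beside 3.15% of all genes (1.76% higher, 1.39% lower). With any transcript counted, 2 genes passed, beside 3.82% of all genes, the further one being Plin3 through TCONS_00012328. Without the 6 genes, 0 of 49 passed in the authors' deposited table. At an unadjusted p under 0.05, 7 of the 49 were higher and 2 were lower, 18.4% against 28.5% of all genes (13.6% higher, 14.9% lower). The authors called 2 of the 49, beside 12.4% of all genes. At an adjusted p under 0.1, 5 of the 55 passed, beside 12% of all genes. They were Slc27a4, Plin3, Pnpla2, Mgll and Hsd17b11, of which Hsd17b11 alone is not one of the 6 genes. For the 49 without the 6 genes, the median log2 ratio was 0.13 both on the transcript of highest mean value and on gene totals, beside 0.02 over all genes on either measure. The list medians that follow are given on these 2 measures in that order, without the 6 genes.

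Of 18 droplet coat and structure genes, 8 were measured and 0 passed, and without Plin3 the median log2 ratio was 0.02 on the main transcripts and 0.24 on gene totals. Plin2, the coat protein that marks droplets in most cells, had a value of 28.86 with simvastatin and 28.49 in controls on its main transcript (adjusted p = 0.646 in the authors' deposited table). Hsd17b11, an enzyme found on droplets, had 30.43 and 16.75 with an adjusted p of 0.062 in the authors' deposited table, and was named after its values were seen because the authors called it. Of 15 lipases and co-activators, 7 were measured and 0 passed, and without Mgll, Pnpla2 and Abhd5 the median log2 ratio was 0.09 on the main transcripts and 0.24 on gene totals. Lipa, the lysosomal acid lipase, had 37.42 with simvastatin and 34.18 in controls (adjusted p = 0.947 in the authors' deposited table). Abhd12, which hydrolyses lysophospholipids and 2-arachidonoylglycerol, had 30.96 and 27.89 (adjusted p = 0.866 in the authors' deposited table).

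Of 21 genes of fatty acid uptake, binding and activation, 8 were measured, 1 (Slc27a4) passed as higher and 0 as lower, and without Slc27a4 and Fabp5 the median log2 ratios were 0.30 and 0.29. Of 17 genes of triacylglycerol and cholesteryl ester synthesis, 11 were measured and 0 passed, with median log2 ratios of 0.03 and 0.13. Agpat1 and Agpat3, which add a fatty acid to lysophosphatidic acid, had 45.73 against 41.71 and 28.47 against 23.44 with simvastatin and in controls (adjusted p of 0.94 and 0.37 in the authors' deposited table). Dgat1, which makes triacylglycerol, had 9.53 and 5.79 with an adjusted p of 0.133 in the authors' deposited table, and was named after its values were seen because the authors called it. Of 9 further genes of endocannabinoid turnover, 2 were measured: Abhd12, given above, and Abhd6, a further monoacylglycerol lipase. Abhd6 had 3.33 with simvastatin and 4.22 in controls (adjusted p = 0.491 in the authors' deposited table). The median log2 ratios of these 2 genes were -0.10 and 0.00.

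Of 16 genes of mitochondrial fatty acid oxidation, which burns what lipolysis sets free, 14 were measured and 0 passed, with median log2 ratios of 0.08 and 0.02. Acadl had 58.91 with simvastatin and 53.93 in controls, and Eci1 had 29.58 and 31.54 (adjusted p of 0.179 and 0.606 in the authors' deposited table). Of 11 transcription factors linked to lipolysis, 7 were measured and 0 passed, with median log2 ratios of 0.36 and 0.27. Rxra, the partner of the PPAR receptors, had 25.09 and 24.99 (adjusted p = 0.893 in the authors' deposited table), and Foxo3 had 21.2 and 17.72 (adjusted p = 0.64 in the authors' deposited table).

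**Figure D5:**
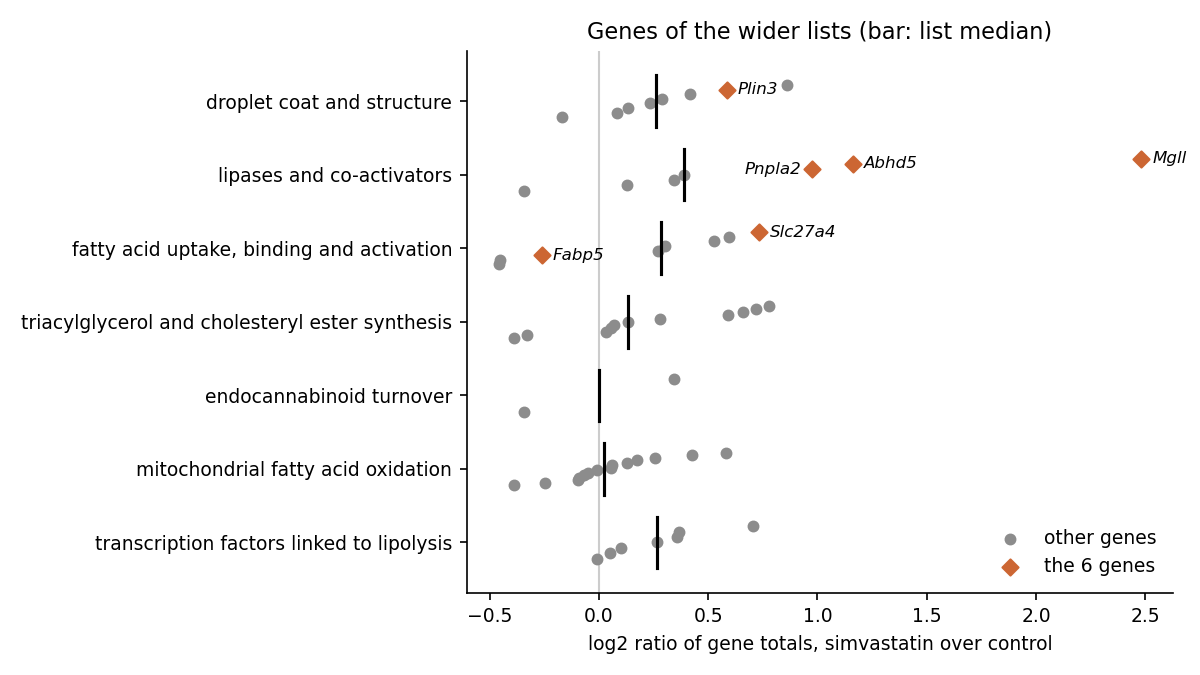
Log2 ratio of gene totals (simvastatin over control) for the measured genes of 7 lists; diamonds are the 6 genes, circles the other genes and bars the list medians. Mgll, at 2.48, stands furthest right, and the medians lie between 0.00 and 0.39.

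Among the families of the 6 genes, Abhd was the one with many measured members. The 11 Abhd genes other than Abhd5 had log2 ratios of their totals from -0.45 to 0.51, against 1.16 for Abhd5. None of the 11 passed an adjusted p of 0.05 in the authors' deposited table, and 3 had an unadjusted p under 0.05, a share near the 28.5% of all genes. In the Pnpla family, Pnpla8, a phospholipase, had 2.03 with simvastatin and 0.34 in controls, a log2 ratio of 2.58 that is larger than that of Pnpla2, with an adjusted p of 0.482 in the authors' deposited table. In the Plin family, the summed value of Plin2 was 53.64 with simvastatin and 48.84 in controls. In the Fabp family, Fabp7, the brain-type binding protein, had 5.5 with simvastatin and 7.55 in controls (adjusted p = 0.346 in the authors' deposited table).

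The authors' deposited table of enriched terms lists Mgll, Pnpla2, Abhd5 and Slc27a4 under lipid metabolic process among upregulated processes (67 genes, 3.49-fold enrichment, adjusted p = 6.68e-15). Mgll, Abhd5 and Slc27a4 stand under fatty acid metabolic process (17 genes, 3.23-fold, adjusted p = 0.00758 in the authors' deposited table), and Mgll and Pnpla2 under the pathway Thermogenesis (21 genes, 2.13-fold, adjusted p = 0.0335 in the authors' deposited table). Plin3 is listed in 4 of 50 upregulated and in 2 of 51 downregulated process terms, with cytoplasm among both, and it has 1 transcript called in each direction. Fabp5 is in none of these terms. The term tables are the authors' own reading of the same comparison and give no independent support.

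The authors' deposited network of protein links from STRING, kept at scores above 0.7 per the file headers, joins Abhd5 to Pnpla2 at a score of 0.999 and Mgll to Pnpla2 at 0.983. Pnpla2 is also joined to Dgat1 at 0.982, to fatty acid synthase (Fasn) at 0.761 and to stearoyl-CoA desaturase (Scd1) at 0.723. Mgll is also joined to 3 mitochondrially encoded subunits of respiratory complex I, mt-Nd1 at 0.85 and mt-Nd2 and mt-Nd4 at 0.822 each. The authors' deposited clustering of that network puts Mgll and Pnpla2 in a cluster of 2 genes named for the regulation of lipolysis in adipocytes. The scores describe prior knowledge of the proteins and not a change in these cells.

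RefSeq promoter windows were found for 5 of the 6 genes, 6 windows in all. Of the 5 motifs searched on both strands, CACGTG was in 1 window, the Mgll window at the start of Mgll-204. The other Mgll window, whose start lies nearer to that of Mgll-201, held none of the 5 motifs. The motif GATTGGN, whose other strand reads as the binding site of the factor NF-Y, was in 1 window, that of Plin3, and in 16.1% of all windows. The CLEAR element of lysosomal genes, which contains CACGTG, the sterol response motif TCACNCCAC, and the PPAR response element (a direct repeat with a single spacer base) were in 0 of the 6 windows. They were in 0.326%, 1.24% and 0.0396% of all windows. No motif was thus shared by the windows of different genes, which says only that these letters are not in these windows.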

How the data were processed

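RNA from 6 samples, 3 per group, was sequenced from strand-specific total RNA libraries. Per the submitters' processing notes, HISAT2 2.0.5 and StringTie were used with GRCm38/mm10; no source used here states how reads were counted, filtered or tested. The authors' deposited table of transcripts gives, per the file headers, a value per group in no named unit, a fold, a p-value and an adjusted p-value per transcript. The authors deposited no values per sample in that table, so no test was refitted and depth stays unknown. The labels call the samples of a group biological replicates, but what estimate of their spread the p-values rest on is not stated. The authors' deposited term tables give a fold enrichment and p-values, and their network table gives a STRING score per link. A further deposited table of log2 fold changes holds 0 of the 6 genes; other deposited tables were not used here.

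Group values were summed per gene, and log2 ratios taken without a pseudocount, in Python 3.11.15 with pandas 2.3.3 and numpy 2.4.6. The summing was checked on simulated data in which all transcripts of a gene changed by the same fold. Unlike changes between transcripts of a gene were not simulated. A transcript was called at the deposited adjusted p under 0.05. Genes were placed on GENCODE M21. Similar transcripts were sought with minimap2 2.31-r1302 (at least 300 bases at 80% identity). Named were all 6 genes, genes past the threshold in each list and otherwise the 2 of highest mean value, and the 3 genes nearest to Mgll; exceptions are stated. The members and lists were chosen with earlier results of these data known.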

Additional observations from a re-analysis of the deposited data

How the results depend on the processing

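The count of called transcripts among the 12 depended on the rule: 2 at an adjusted p under 0.05, 5 at an adjusted p under 0.1, 6 by the authors' call and 8 at an unadjusted p under 0.05. It was 1 over Ensembl transcripts only and 1 over transcripts with both group values of at least 1, because both leave out Plin3 TCONS_00012328. In the wider lists, with the 6 genes included, 1 gene passed on its transcript of highest mean value and 2 with any transcript. Of the 55 measured, 5 passed an adjusted p under 0.1, beside 12% of all genes. At an unadjusted p under 0.05 there were 15 of the 55, beside 28.5% of all genes. Under another pseudocount, scaling, centring or choice of transcripts, 66 of 66 log2 ratios of the 12 transcripts and 6 totals kept their direction. Much of this was fixed in advance. Adding 1 to both groups cannot reverse a ratio, and the medians used for centring, 0.02, were smaller in size than every one of these ratios. For Fabp5 and Slc27a4, with 1 row each, the choice of transcripts changed nothing. In 3 of the 66 the linear ratio of the group values moved by over 1.5 times. With 1 added to each value, the log2 ratio of Plin3 TCONS_00012328 went from -7.45 to -1.45 and that of Abhd5-205 from 2.81 to 1.83. That of the Mgll total went from 2.48 to 3.20 on its main transcript alone. Small log2 ratios moved more in proportion: scaling to equal sums brought Abhd5-202 from 0.16 to 0.36 and Abhd5 TCONS_00028152 from -0.22 to -0.02. Fabp5 lay between -0.28 and -0.06. No paired analysis was possible because the table holds 1 value per group; leaving out each replicate was not run for the same reason, and the authors' log2 fold changes per gene were not run because that table holds 0 of the 6 genes. Depth is unknown, so what a low value can show is unknown too.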
